A study of Homo sapiens with 4 samples.

Results

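The 10 genes described here are *EGR1*, *EGR2*, *EGR3*, *EGR4*, *IER2*, *IER3*, *IER5*, *NR4A1*, *NR4A2* and *NR4A3*, 10 of the 20033 protein-coding genes and 62663 genes of GENCODE release 44. They were chosen by name as members of 3 families of immediate early genes, and every H3.3 peak interval that overlapped one of these genes or lay within 10 kb of any of its annotated transcription start sites (TSSs) was taken. H3.3 had been immunoprecipitated from MRC5 cells, a human lung fibroblast line (the study's text names MRC5_VA, fetal lung fibroblasts immortalized with SV40). The cells were not irradiated (no UV), or were irradiated with 10 J/m2 UV-C and left to recover for 3 h before fixation (UV). Both libraries come from cells titled WT. Each condition is a single mixed library (3 replicates in 1) of 1 cell line. No difference between the conditions has a replicate check, no test between them was made, and the values below describe these libraries.

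Immediate early genes are transcribed within minutes of a growth factor, stress or damage signal without new protein synthesis, because their promoters are bound in advance by factors that kinases of the MAPK pathways activate. The EGR genes encode zinc finger transcription factors that bind GC-rich sites, the NR4A genes encode orphan nuclear receptors that act without a known ligand, and the IER genes encode small proteins of other kinds, IER3 being an anti-apoptotic factor. H3.3 is the histone variant that is deposited outside of DNA replication, and it is known to mark active promoters, enhancers and the bodies of transcribed genes.

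The promoters that bear on the intervals below are shown first, because serum response factor binds CArG boxes and CREB binds the cAMP response element (CRE), and both are known regulators of these families. RefSeq promoter sequences (GRCh38.p14) were matched for 7 of the 10 genes. *EGR3*, *IER3* and *NR4A2* were not matched. Printed are stretches of up to 250 bases that end just before the first exon, 5′ to 3′ on the strand of the gene, with CArG boxes and CRE cores (TGACG, or CGTCA on the other strand) in capitals. They lie at chr5:138465229-138465478 on the plus strand (EGR1), chr10:62816374-62816616 on the minus strand (EGR2), chr1:181088450-181088699 on the plus strand (IER5) and chr9:99821635-99821854 on the plus strand (NR4A3).
EGR1: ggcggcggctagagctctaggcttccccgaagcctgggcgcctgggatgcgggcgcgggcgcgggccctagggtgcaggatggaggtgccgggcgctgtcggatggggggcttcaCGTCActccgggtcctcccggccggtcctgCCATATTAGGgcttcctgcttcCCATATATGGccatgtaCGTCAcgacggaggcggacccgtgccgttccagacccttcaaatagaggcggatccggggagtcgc
EGR2: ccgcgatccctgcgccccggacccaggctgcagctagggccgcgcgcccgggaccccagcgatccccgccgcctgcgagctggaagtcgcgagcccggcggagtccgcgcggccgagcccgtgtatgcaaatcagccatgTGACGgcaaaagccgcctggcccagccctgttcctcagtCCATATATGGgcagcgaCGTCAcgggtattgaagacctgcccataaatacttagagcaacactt
IER5: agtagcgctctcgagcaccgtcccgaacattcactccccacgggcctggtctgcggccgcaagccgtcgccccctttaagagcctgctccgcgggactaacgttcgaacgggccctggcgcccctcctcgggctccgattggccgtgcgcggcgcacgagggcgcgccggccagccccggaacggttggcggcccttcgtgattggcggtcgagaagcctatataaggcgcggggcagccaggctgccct
NR4A3: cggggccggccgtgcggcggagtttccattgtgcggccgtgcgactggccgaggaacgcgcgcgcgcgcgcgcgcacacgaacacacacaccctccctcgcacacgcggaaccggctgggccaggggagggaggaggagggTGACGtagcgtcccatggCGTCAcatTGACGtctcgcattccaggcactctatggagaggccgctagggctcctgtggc

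Positions are counted in bases from the first base of the canonical transcript, which is 0, with negative values upstream on the strand of the gene. *EGR1* had 2 CArG boxes, at −105 to −96 and −83 to −74, and *EGR2* had 1, at −71 to −62. A CArG box (CC, then A or T at 6 positions, then GG) was found in 1.29% of all 35116 RefSeq promoters of 300 bases, searched on both strands. The CRE core was found in *EGR1*, *EGR2*, *EGR4*, *IER2* and *NR4A3*, 5 of 7 matched genes, and in 24.6% of all promoters. A gene was counted if any of its promoters held the letters, and *EGR2* and *NR4A1* had more than 1 promoter. The percentages count promoters singly, so counts of genes and percentages differ in unit. *NR4A3* had 4 cores, of which the 1 nearest to the start lies past the printed stretch. The ETS core CCGGAA was found in *IER2*, *IER5* and *NR4A1* (17.2% of all promoters) and the Sp1 box GGGCGG in 5 genes (45.0%). The full CRE TGACGTCA (1.85%), the EGR site GCGTGGGCG or GCGGGGGCG (5.77%), the NR4A response element AAAGGTCA (1.22%), the AP-1 site TGANTCA (7.71%) and TATAAA (11.5%) were found in 0 of the 7. These matches describe letters in a window and do not show that a factor was bound. The *NR4A1* promoters in RefSeq lie far upstream of the canonical start used here.

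For each peak the deposited lists give an interval, 1 or more summits, a fold enrichment over the local background, and 2 measures of significance, the −log10 p and the −log10 q. The fold and the p-value together give the number of reads stacked at the summit, which came out whole within 0.01 for 100% of peaks in both lists. The no UV list held 102949 peaks and the UV list 89740, in 88822 and 77183 distinct intervals on the chromosomes used, with a median of 14 and 16 reads at the summit and a median width of 435 and 449 bp. The shortest intervals had 281 bp and 294 bp, so width differences of about that gap carry no information. Ratios of reads were divided by 0.953, the ratio of the lowest backgrounds of the libraries, and their 95% intervals cover counting error only. Of 20 fibroblast markers 15 had an interval within 1 kb of a TSS without UV and 16 after UV, among them *COL1A1*, *FN1* and *VIM*, whereas *COL3A1* and *THY1* had none. Of 20 markers of other cell types 7 and 5 had one, with none at *PTPRC*, *EPCAM* and *PECAM1*. *GFAP*, a marker of astrocytes, had 118 and 136 reads at its highest TSS summit, more than most of the fibroblast markers. The epithelial *CDH1* had 52 and 43. More fibroblast markers than other markers thus had an interval, but the interval at a single marker does not tell the cell type.

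H3.3 intervals lay near the same 9 genes in both libraries, but after UV they reached further into the transcripts. The 9 genes other than *EGR4* had an interval in their window in each list, against 69.9% of protein-coding genes without UV and 71.0% after UV. An interval within 1 kb of a TSS was present at 7 genes without UV (48.0% of protein-coding genes) and at 9 after UV (54.0%). *IER2* and *IER5* had one after UV only, as 9.20% of protein-coding genes did, and 0 of the 10 had one without UV only (3.20%). With 2 kb in place of 1 kb, 9 genes had a TSS interval in each list and neither gene was UV only. The distinct intervals at the 10 genes numbered 45 without UV and 55 after UV, with 63 and 71 summits. They covered 30468 bp in the first library and 36727 bp in the second, a ratio of 1.21, whereas the same ratio over all protein-coding genes was 0.96. Covered bases were more after UV in 7 genes and fewer in *IER2* and *IER3*, against 50.1% of the 14940 protein-coding genes with an interval that had more.

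**Figure D1:**
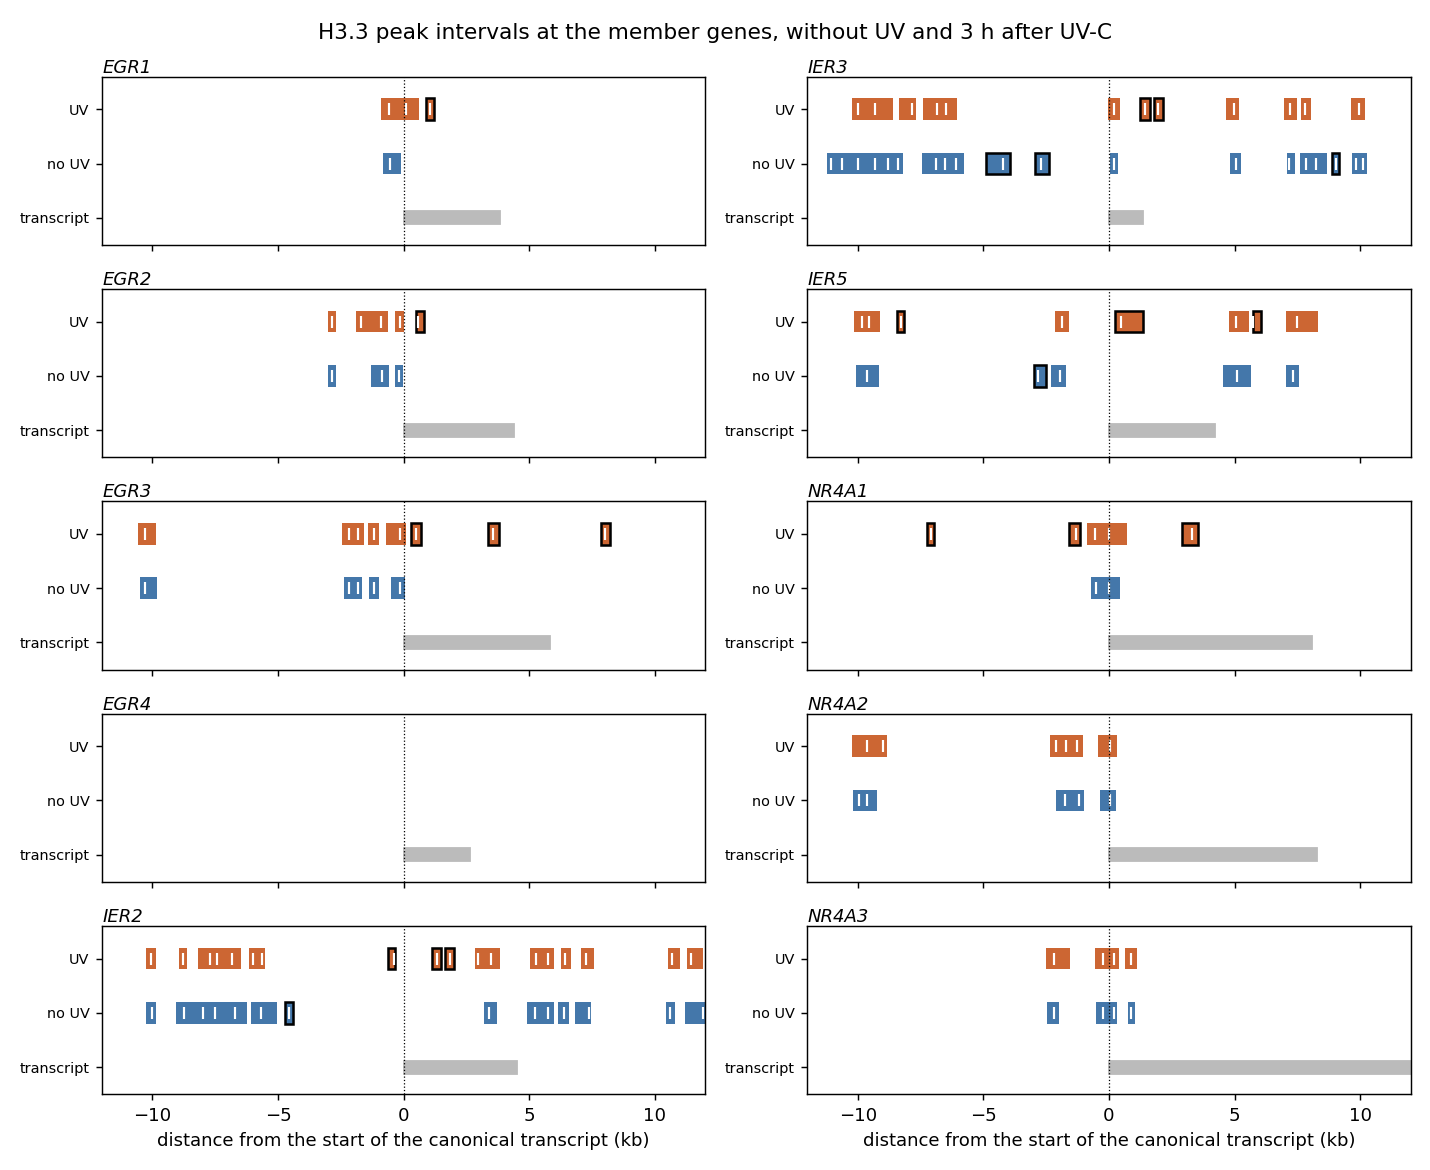
H3.3 peak intervals at each gene by distance from the start of the canonical transcript (kb, transcription to the right), without UV (blue) and after UV (orange), with white ticks at summits, the transcript in grey, and a black outline around intervals that overlap none in the other list. Outlined UV intervals lie inside the transcripts of EGR1, EGR2, EGR3, IER2, IER5 and NR4A1, and EGR4 has no interval. The axis ends 12 kb on either side, so the far upstream intervals of NR4A1 and part of the NR4A3 transcript are not shown.

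The difference lay within the transcripts. Intervals covered 2256 bp of the 10 canonical transcripts without UV and 8062 bp after UV, a ratio of 3.57, and in the 10 kb before the start they covered 19164 bp and 19470 bp, a ratio of 1.02. All 9 genes with an interval had more covered transcript bases after UV, against 43.7% of protein-coding genes with an interval in their window. The share was 48.4% of the 9521 whose transcript is no longer than that of *NR4A3*, the longest of the 10. *NR4A3* has 45007 bp and the 10 transcripts a median of 4436 bp, so these 9521 genes are not matched to the 10 in length. Genes with no covered transcript bases in either list count here as not having more. The 9 genes all had a TSS interval after UV, as 54.0% of protein-coding genes did, and the shares were not limited to such genes. The ratio of covered transcript bases over all protein-coding genes was 0.907, and over those 9521 genes 1.05. Upstream, 6 genes had more covered bases after UV and 3 had fewer (*IER2*, *IER3* and *IER5*), against 45.2% of protein-coding genes with more and a ratio of 1.08. Transcript coverage was chosen as a measure after the intervals had been seen.

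**Figure D2:**
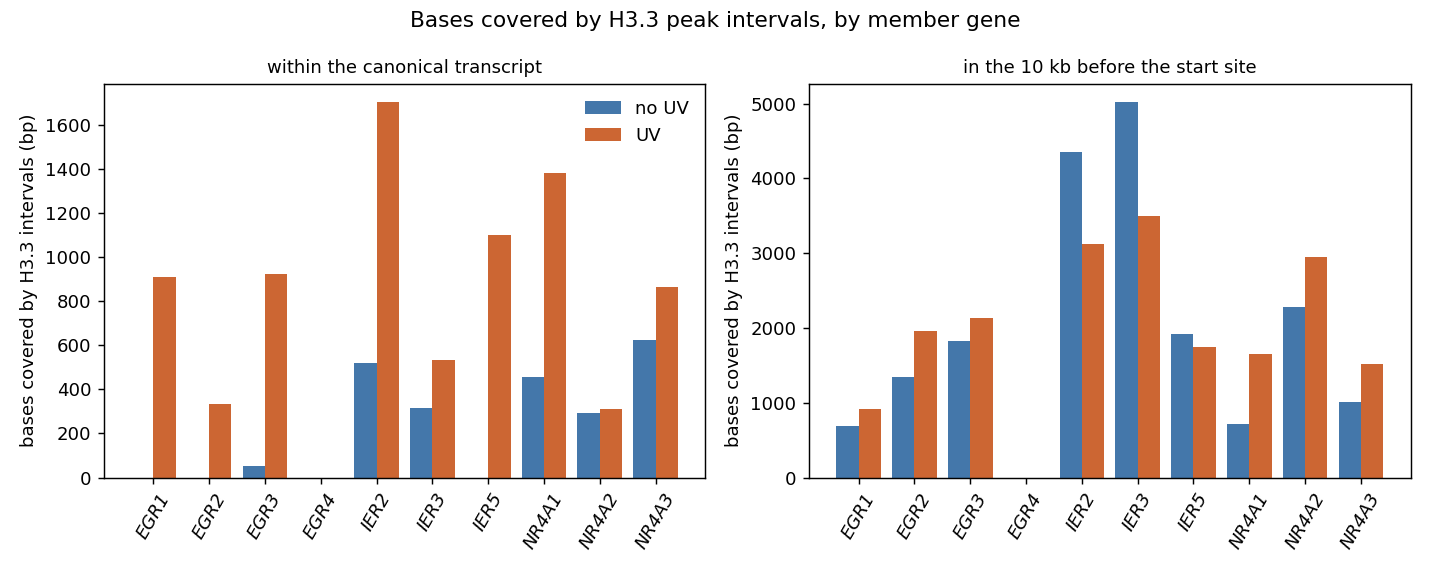
Bases covered by H3.3 intervals in each gene without UV (blue) and after UV (orange), within the canonical transcript (left) and in the 10 kb before its start (right), on axes that start at 0 and differ in range. Within transcripts the UV bar is the higher for the 9 genes with intervals, from 312 bp in NR4A2 to 1702 bp in IER2, whereas upstream it is the lower for IER2, IER3 and IER5.

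By distance, covered bases at the 10 genes were 15532 bp without UV and 14897 bp after UV from 10 kb to 1 kb before the start, a ratio of 0.959 (0.997 over all protein-coding genes). In the last 1 kb before the start they were 3632 bp and 4573 bp, a ratio of 1.26 (1.42 over all). In the first 1 kb of the transcript they were 1712 bp and 4502 bp, a ratio of 2.63 (1.45 over all), with more in 8 genes and fewer in 0. Beyond the first 1 kb of the transcript they were 544 bp and 3560 bp, a ratio of 6.54, with more in 7 genes and fewer in 0, where the ratio over all protein-coding genes was 0.852. Nearly all of the 544 bp was 1 interval of 518 bp in exon 2 of *IER2*, so the ratio rests on a small base. *IER3* is among the 7 genes only through a UV interval that overlaps its transcript end and cannot be assigned to 1 gene. In the 5 kb past the transcript end the covered bases were 4150 bp and 5815 bp (1.4, against 1.02). Before and near the start the 10 genes had the direction of all genes, and further into the transcript they did not. The median transcript of all protein-coding genes has 22913 bp, more than each of the 10 but *NR4A3*, and the part of transcript length in this difference was not tested beyond the values for shorter transcripts above.

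**Figure D3:**
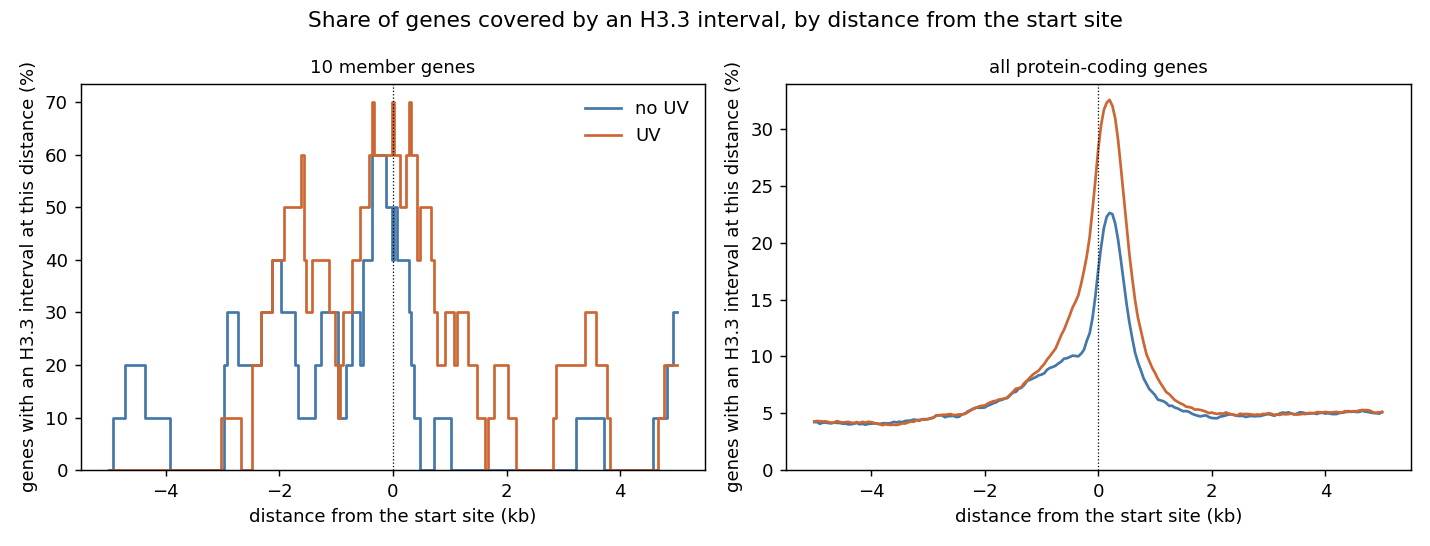
Share of genes covered by an H3.3 interval (%) by distance from the start of the canonical transcript (kb) for the 10 genes (left, steps of 10 percentage points are 1 gene) and all 20033 protein-coding genes (right), without UV (blue) and after UV (orange). At the start site the share is 40.0% and 70.0% for the 10 genes, and 17.6% and 28.2% for all genes.

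The start site itself was covered in 4 genes without UV (*EGR3*, *NR4A1*, *NR4A2* and *NR4A3*) and in 7 after UV. *EGR1*, *EGR2* and *IER3* were covered after UV only, as 11.9% of protein-coding genes were, and 0 of the 10 without UV only (1.27%). The widest TSS interval was wider after UV in 7 of the 7 genes that had one in both lists, with a median ratio of 1.45, against 71.1% of 8974 protein-coding genes with a median ratio of 1.17. The reads at the highest TSS summit were 1.19 to 1.80 times as many after UV, with a median of 1.33, which equals the median of 1.33 over those 8974 genes (quartiles 1.15 and 1.57). With the libraries scaled so that the latter median is 1, the median over the 7 genes was 0.998, so the direction of the read ratios given here rests on the scaling by the lowest backgrounds. A ratio of at least 1.5 was found in *EGR1*, 1 of 7 genes, against 31.2% of protein-coding genes. The highest TSS summit was taken in each list separately and can lie at different TSSs. At *NR4A2* it had 79 reads at −9643 after UV and 59 at +52 without UV. The summits at the same upstream TSSs of *NR4A2* had a ratio of 1.88, which this count leaves out. Summit reads at the start sites thus stood where those of other genes stood. The intervals were wider after UV, as they were for 71.1% of protein-coding genes. At *NR4A2* the widest interval lay at −2122 to −975 without UV and at −10212 to −8819 after UV.

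For 31 UV summits in TSS intervals the nearest no UV summit lay at a median distance of 60 bp, which became 34 bp and 342 bp when −log10 q minima of 3 and 5 were set. Of these, 22 lay in intervals that overlapped a no UV interval, with 15 within 50 bp of a no UV summit and 5 over 200 bp from one, at *EGR1* (+103), *EGR2* (−1706), *NR4A1* (−14569) and *NR4A2* (−2095 and −8982). The other 9 lay in intervals that overlapped none, 654 to 6138 bp from the nearest no UV summit. Intervals that overlapped none of the other list numbered 8 of 45 without UV and 16 of 55 after UV. Over whole lists such intervals made up 42.7% without UV and 34.4% after UV, and in the windows of all protein-coding genes 42.0% and 35.2%, so neither count is high for these libraries. Of the 8 without UV, 0 had their summit inside a transcript, 7 upstream and 1 downstream, with 10 to 25 reads at the summit and a −log10 q of 1.88 to 6.58. Of the 16 after UV, 8 had their summit inside a transcript, 4 upstream and 4 downstream, with 7 to 54 reads and a −log10 q of 2.48 to 22.8. Among protein-coding genes with transcripts no longer than that of *NR4A3*, the summit lay inside the transcript for 48.2% of such intervals without UV and 47.7% after UV, each interval counted once for each gene. Those genes have transcripts of up to 45007 bp, whereas the 10 transcripts have a median of 4436 bp and all but *NR4A3* at most 8285 bp. The shares are thus not matched in length to the 8 of 16 and the 0 of 8, and the difference was not tested. A missing interval means that the signal did not pass the peak caller's threshold, not that there were no reads. The GC content of the 8 UV intervals inside transcripts had a median of 65.3%, of the 16 together 64.2%, of the 39 UV intervals with a counterpart 57.4% and of all UV intervals 50.8% (all no UV intervals 49.2%). The part of GC content in the result was not tested.

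**Figure D4:**
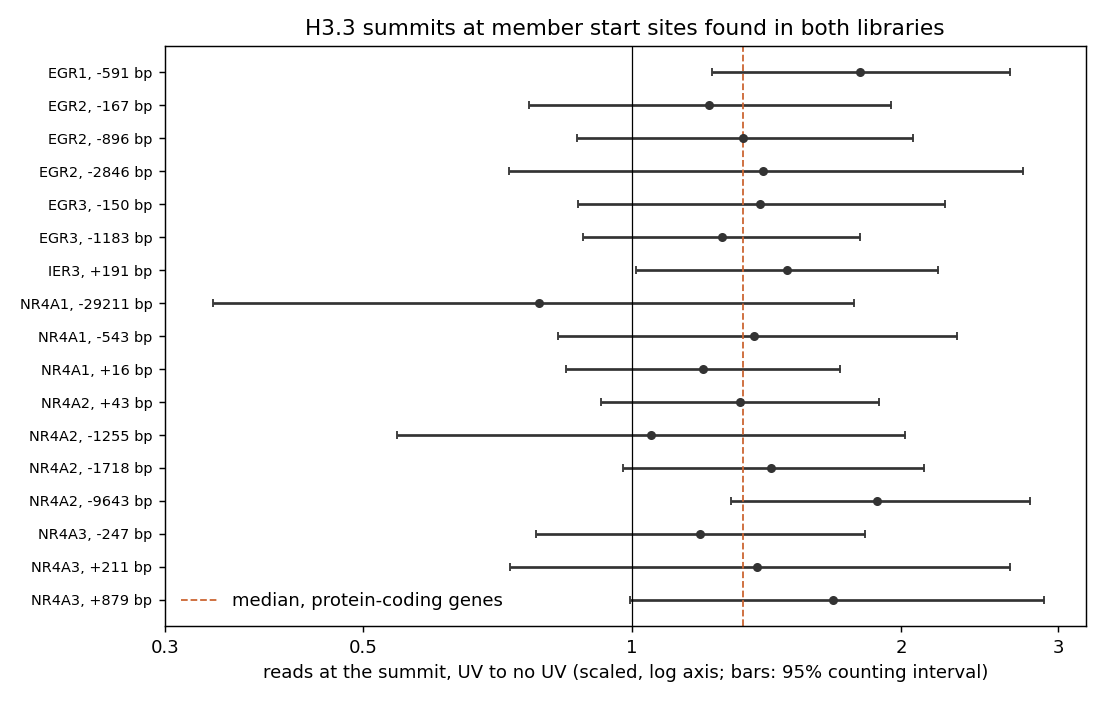
Ratio of reads at summits in TSS intervals of the 10 genes, UV to no UV, for summits with a counterpart within 150 bp in the other library, after scaling between the libraries (log axis, points with 95% counting intervals, labelled by gene and distance from the canonical start). The ratios spread around the median of 1.33 over protein-coding genes (dashed line), and the intervals of EGR1 at −591, NR4A2 at −9643 and IER3 at +191 lie above 1.

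In the EGR family, covered bases were 3921 bp without UV and 7538 bp after UV, a ratio of 1.92, and within transcripts 51 bp and 2168 bp. *EGR1*, a zinc finger factor that is the most studied sensor of mitogens and stress in this family, lies on chromosome 5 (138465479 to 138469303, plus strand, 2 exons). Without UV its window held a single interval, at chr5:138464669-138465363 (695 bp), which ended 116 bp before the start and had 45 reads at its summit at −564. After UV the interval was chr5:138464565-138466079 (1515 bp), reached 600 bp into the transcript, and had 77 reads at −591, 27 bp from the earlier summit. The ratio of the summits was 1.80 (95% interval 1.23 to 2.65). The long noncoding RNA ENSG00000289267 has a TSS 801 bp from that of *EGR1* and shares these summits, which cannot be assigned to 1 of them. The UV interval held a second summit in the 5′ UTR at +103 with 45 reads. Both CArG boxes printed above lie between the end of the no UV interval and the start site, inside the UV interval. A further UV interval of 309 bp lay in intron 1 at +901 to +1209 with 37 reads (−log10 q 11.2), where the no UV list had none. The covered transcript bases were 0 without UV and 910 after UV, 23.8% of the transcript.

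*EGR2*, known for its part in hindbrain and Schwann cell development, lies on chromosome 10 (62811996 to 62819167, minus strand, 6 TSSs). It had 3 intervals without UV and 4 after UV. The one at the canonical start was chr10:62816376-62816722 (347 bp) without UV, ending 10 bp before the start, and chr10:62816338-62816717 (380 bp) after UV, ending 28 bp past it. Their summits, at −186 and −167, had 37 and 43 reads (1.22), and the CArG box lies in both intervals. The upstream interval measured 708 bp without irradiation and 1277 bp with it, with 41 and 52 reads (1.33, 0.867 to 2.06) at −881 and −896 and a second UV summit at −1706 with 31 reads. The interval at the farthest upstream TSS had 18 and 24 reads (1.4). A UV interval of 305 bp in intron 1, at +487 to +791 with 24 reads, had no counterpart. None of the *EGR2* ratios had an interval that excluded 1.

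*EGR3*, a factor close to EGR1 that acts in T cells and muscle spindles, lies on chromosome 8 (22687659 to 22693480, minus strand, 2 exons). Its 4 no UV intervals all had a UV counterpart. At −149 and −150 the summits had 34 reads without UV and 45 after UV (1.39), and the interval was 570 bp and 828 bp wide. At −1184 and −1183 they had 60 and 72 reads (1.26, 0.881 to 1.80), and at −10302 and −10300 they had 59 and 82 (1.46). These 3 pairs of summits lay 1 or 2 bp apart. Intervals without a counterpart were found after UV in the 5′ UTR at +505 (387 bp, 38 reads, −log10 q 12.5), in the 3′ UTR at +3570 (431 bp, 23 reads) and past the gene at +8014 (368 bp, 25 reads). Covered transcript bases were 51 without UV and 924 after UV. The long noncoding RNA ENSG00000289521 has its TSS 1976 bp from that of *EGR3*, so the upstream intervals cannot be assigned to 1 of them.

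*EGR4*, expressed mainly in the nervous system and the testis, lies on chromosome 2 (73290929 to 73293701, minus strand) and had no interval in its window of 20154 bp in either list. It was the only one of the 10 without one, although its promoter had 2 CRE cores and a GC content of 71.0%, above the median of 58.7% over all promoters.

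In the IER family, covered bases were 19008 bp without UV and 19235 bp after UV (1.01), with 834 bp and 3335 bp within transcripts (4) and 11291 bp and 8359 bp upstream (0.74). The upstream and transcript bases thus went opposite ways. *IER2*, a nuclear protein induced by growth factors, lies on chromosome 19 (13150411 to 13154911, plus strand) and starts 28 bp from the divergent gene *STX10*. Without UV no interval lay within 1 kb of an *IER2* TSS. After UV there were 3, at −384 (295 bp, 21 reads, −log10 q 2.81), +1342 (361 bp, 16 reads, 2.65) and +1830 (350 bp, 34 reads, 12.7), the last 2 in intron 1 of the canonical transcript and close to internal TSSs. The first lies in the *STX10* gene, and its reads cannot be told apart between the genes. In exon 2, which holds coding sequence and 3′ UTR, the interval was 518 bp without UV and 991 bp after UV, with 53 and 54 reads at +3405 and +3479 (1.07). It lies within 1 kb of TSSs of the long noncoding RNAs ENSG00000287296 and ENSG00000267598 and cannot be assigned to 1 gene.

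The strongest *IER2* summits lay past its end. At +5239 and +5247 there were 56 reads without UV and 97 after UV (1.82, 1.29 to 2.57), and at +5744 and +5741 there were 76 and 100 (1.38, 1.01 to 1.89). The −log10 q of 92.5 at the first put it at the 99.5th percentile of the UV list. Several upstream summits had fewer reads after UV. An interval of 2834 bp (−9065 to −6232) without UV had 42 reads at −6705, and after UV intervals of 309 bp and 1718 bp stood in its place, with 24 reads at −6815 (0.600, 0.347 to 1.01). The ratio was 0.622 (0.313 to 1.2) at −7429 and 0.630 (0.281 to 1.35) at −8792, but 1.05 at −5648 and 1.57 (0.763 to 3.35) at −10069, and each of these intervals includes 1. The interval at −4726 to −4387 (340 bp, 10 reads) was in the no UV list only.

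*IER3*, a stress-induced inhibitor of apoptosis, lies on chromosome 6 (30743199 to 30744548, minus strand, 1349 bp). Its TSS interval was chr6:30744197-30744512 (316 bp) without UV and chr6:30744124-30744582 (459 bp) after UV, both with the summit in the coding part of exon 1, at +201 and +191. The long noncoding RNA *HCG20* has a TSS 757 bp from that of *IER3* and shares these summits, which cannot be assigned to 1 of them. The reads at these summits were 48 and 68, a ratio of 1.49 (1.01 to 2.20). The covered transcript bases of *IER3* were 316 without UV and 533 after UV. The UV value includes part of another interval, from +1240 to +1624, which overlaps the end of the transcript. The local background at the summits of the TSS interval was 6.26 reads without UV and 14.3 after UV, so the −log10 q was 23.1 and 21.5. Elsewhere it moved both ways, as from 4.47 to 6.75 reads at *EGR2* (−896) and from 7.15 to 4.22 at *NR4A2* (−9643). The part of the local background in interval widths was not tested. With summits past the transcript end, the UV list had intervals at +1434 (385 bp, 41 reads) and +1957 (382 bp, 54 reads) that had no counterpart. They lie at the TSSs of *FLOT1* and *IER3-AS1*, which are 1815 bp and 1618 bp from that of *IER3*, and cannot be assigned to 1 gene. Upstream, intervals at −2703 (563 bp, 18 reads) and −4220 (968 bp, 15 reads) were in the no UV list only. A wide interval of 3013 bp (−11209 to −8197) without UV was 1655 bp after UV, with 61 reads at its highest summit in both (1.05).

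*IER5*, a regulator of heat shock factor HSF1, is a single-exon gene on chromosome 1 (181088700 to 181092900, plus strand). Without UV the nearest intervals lay at −2312 to −1709 and +4555 to +5650. After UV an interval of 1100 bp (chr1:181088941-181090040) covered +241 to +1340, with 43 reads at +465 in the coding sequence and a −log10 q of 22.8, the highest of the 16 UV intervals without a counterpart. It covered 26.2% of the transcript, of which 0% was covered without UV. The TSS of the long noncoding RNA ENSG00000289589 lies 161 bp away. The neighbouring intervals had 28 reads without UV and 29 after UV at −1962 and −1886 (1.09, 0.624 to 1.90), and 31 and 21 at +5079 and +5071 (0.711, 0.388 to 1.28). The interval found after UV only thus lay between intervals that both lists held.

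In the NR4A family, covered bases were 7539 bp without UV and 9954 bp after UV (1.32), with 1371 bp and 2559 bp within transcripts (1.87) and 4003 bp and 6109 bp upstream (1.53). *NR4A1* (Nur77), known for its part in apoptosis of T cells, lies on chromosome 12 (52022832 to 52059507, plus strand) and has 19 TSSs. At the canonical start the interval was chr12:52050727-52051897 (1171 bp) without UV and chr12:52050558-52052155 (1598 bp) after UV. Their highest summits, at −15 and +16, had 63 and 72 reads (1.2, 0.843 to 1.71), and the side summits at −510 and −543 had 29 and 38 (1.37). After UV an interval of 667 bp with 17 reads lay in exon 2 at +3293, in coding sequence, and had no counterpart. Weak intervals differed at the upstream TSSs. Those at −28194 (25 reads), −26151 (16 reads) and −13236 (16 reads) were in the no UV list only, and those at −7098 (16 reads) and −1331 (15 reads) were in the UV list only. In the overlapping intervals from −14960 to −14444 (no UV) and from −14967 to −14326 (UV) the summits had 14 and 35 reads, 292 bp apart.

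*NR4A2* (Nurr1), required for midbrain dopamine neurons, lies on chromosome 2 (156324437 to 156342348, minus strand). It had 3 intervals in each list, each with a counterpart. The highest summit after UV lay at the farthest upstream TSSs, at −9643, with 79 reads against 44 at −9623 without UV, a ratio of 1.88 (1.29 to 2.79), in intervals of 1394 bp and 937 bp. At −1718 there were 67 reads and at −1753 without UV 49 (1.43), and at +43 there were 74 and at +52 without UV 59 (1.32). The interval over the canonical start was 655 bp wide without UV, 750 bp after it, and covered 291 and 312 transcript bases, the smallest difference among the 9 genes.

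*NR4A3* (NOR1), a partner gene in fusions of extraskeletal myxoid chondrosarcoma, lies on chromosome 9 (99821855 to 99866891, plus strand). It had 3 intervals in each list, each with a counterpart. The interval over the start was 863 bp without UV and 984 bp after UV, with 45 and 51 reads at −248 and −247 (1.19, 0.781 to 1.82) and 19 and 25 at +191 and +211 (1.38). The interval in intron 1 was 285 bp and 451 bp, with 25 reads at +885 and 40 at +879 (1.68, 0.994 to 2.89). Upstream, the interval was 483 bp and 947 bp, with 46 reads at −2174 and 81 at −2205 (1.85, 1.27 to 2.71), at the TSS of the long noncoding RNA ENSG00000237461. The 4 CRE cores lie within the interval over the start in both lists.

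In other gene lists of the same response the summed ratios of covered transcript bases were below the 3.57 of the 10 genes. In the AP-1, DUSP and other immediate early lists most genes with an interval still had more covered transcript bases after UV. Of 14 AP-1 genes 11 had a TSS interval without UV and 13 after UV, with *FOS* (94 reads) and *BATF2* (12 reads) after UV only. The widest TSS interval was wider in 9 of 11, the median ratio of summit reads was 1.43, and 8 of 14 had more covered transcript bases, with a summed ratio of 1.11. The others with the highest −log10 q were *MAFG* (200 and 196 reads), *MAFK* (84 and 123), *FOSL1* (135 and 185) and *JUNB* (52 and 96). Of 10 DUSP genes, which encode phosphatases of MAP kinases, 8 and 9 had a TSS interval (*DUSP9* after UV only), and 7 of 9 had more covered transcript bases (1.51). Of 24 other immediate early genes 19 and 20 had one (*KLF4* after UV only), and 15 of 21 had more covered transcript bases (1.18). Of 16 upstream factors and partners, which include *SRF*, *ELK1*, *CREB1* and the EGR co-repressors *NAB1* and *NAB2*, 13 had one in each list, and 6 of 15 had more covered transcript bases (0.983). The median transcript had 9246 bp in the AP-1 genes, 10640 bp in the DUSP genes, 5333 bp in the other immediate early genes and 50633 bp in the upstream factors, against 4436 bp in the 10 genes. The widest TSS interval was wider in 7 of 8 DUSP, 14 of 19 other immediate early and 11 of 13 upstream genes. The start site was covered after UV only in 2 AP-1, 1 DUSP, 8 other immediate early and 6 upstream genes, against 3 of the 10 genes. The differences in coverage between the lists were not tested.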

How the data were processed

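H3.3 ChIP-seq peak lists of MRC5 cells without UV and 3 h after 10 J/m2 UV-C were analysed (1 library each). The input libraries were not analysed here. The study's methods state trimming with Trimmomatic, alignment to hg38 with BWA (0.7.12 in the submitters' processing notes) and removal of duplicates. The notes list MACS 1.4.2, while the narrowPeak layout with several summits per interval is that of later releases. The control and threshold of the H3.3 peaks are not stated in the sources used here. The lowest −log10 q among the peaks was 1.3 in both lists. The authors deposited for each peak a score (10 times the −log10 q without decimals), the −log10 p, the −log10 q and a fold enrichment (a ratio to local background), each computed within a library. Summit reads and background were solved from the deposited fold and −log10 p values, and ratios of reads carry exact conditional binomial (Clopper-Pearson) 95% intervals. Read totals of the libraries were not used, so depth is known only through these values.

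Genes, transcripts and TSSs were those of GENCODE release 44 (canonical transcripts for distances, all annotated TSSs for windows). A TSS interval lay within 1 kb of a TSS, and counterparts overlapped by at least 1 bp. The procedures were tested on simulated lists. The tools were scipy 1.17.1, pandas 2.3.3 and numpy 2.4.6 under Python 3.11.15, with plots by matplotlib 3.10.9. The genes and lists were chosen with earlier results of these data known. All 10 genes are named. In the comparison lists those with a TSS interval in 1 list only and a few of the strongest are named. Transcript, distance-zone and start-site coverage, and the shares of intervals without a counterpart, were added after the data were seen. With 1 library per condition no test was made. The alternatives were other windows, −log10 q minima, equal numbers of peaks, summit positions, basic TSSs, a larger overlap and other scalings.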

Additional observations from a re-analysis of the deposited data

How the results depend on the processing

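Of 74 alternative values 68 stayed within the limits set for them, 5 moved and 1 turned its direction. With windows of 5 kb the distinct UV intervals at the 10 genes were 36 instead of 55. At a −log10 q minimum of 5 the no UV intervals without a counterpart were 5 instead of 8. With a TSS window of 2 kb the genes with a TSS interval were 9 in each list, so that 0 instead of 2 had one after UV only. The median distance between nearest summits was 34 bp with a −log10 q of at least 3, 342 bp with at least 5 and 35 bp with basic TSSs only, instead of 60 bp. The median ratio of summit reads at start sites was 0.998 instead of 1.33 when the libraries were scaled so that the median over protein-coding genes is 1 (added after the data were seen), so its direction rests on the scaling. The count of 9 genes with more covered transcript bases was 9 with a −log10 q of at least 3, at least 5 and with equal numbers of peaks, and the ratio of 3.57 was 3.41, 3.12 and 3.57, where all protein-coding genes had ratios of 0.945, 1.02 and 1.00. No paired analysis was possible because there was 1 library per condition, and no library could be left out. Depth limits any statement on a missing interval, since the read totals were not used.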

Other observations

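Neighbouring genes that share the windows of the 10 genes had TSS intervals of their own. *FLOT1*, which encodes a lipid raft protein and lies next to *IER3*, had 0 TSS intervals without UV and 3 after UV, with up to 54 reads at a summit. *IER3-AS1* had 0 and 2. *STX10*, which encodes a syntaxin and starts 28 bp from *IER2*, had 2 in each list with 22 reads at the highest summit in both. Those summits lay far from the shared start, at −5689 without UV and −5648 after UV, counted from the *IER2* start. Within 1 kb upstream of that start only the UV list had an interval, at −384 with 21 reads. Of the long noncoding RNAs, ENSG00000253125 near *EGR3* had 0 and 1 (23 reads), and ENSG00000267512, whose TSS lies 9264 bp from that of *IER2*, had 2 in each list with 42 reads without UV and 21 after UV. *FBXO41* near *EGR4* and *NR4A1AS* near *NR4A1* had none in either list. These intervals are in part those counted for the immediate early genes above, and a single library per condition gives no measure of their spread.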
